A study of Homo sapiens with 5 samples.

Results

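The mRNAs described here are those of 10 core genes of cell cycle entry and division, out of 56632 genes listed in each library. They were chosen by name: the D-type cyclins CCND1, CCND2 and CCND3, the cyclins CCNE1 and CCNB1, the cyclin-dependent kinases (CDKs) CDK1, CDK4 and CDK6, the retinoblastoma gene RB1 and the transcription factor gene E2F1. All 10 were found, and all 10 belonged to the 11764 genes analysed below, those whose FPKM averaged 1 or more across the 5 libraries. FPKM is the number of sequenced fragments of a gene relative to the length of its transcript and to the depth of the library.

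The cells were MCF10A, an established, non-tumorigenic line of breast epithelial cells. RNA immunoprecipitation (RIP) recovers the RNA that comes down with a protein, and RIPseq sequences it beside the input, the RNA of the lysate without an antibody. The comparisons address which transcripts CBFB and hnRNPK bind. Per the labels, 1 input and 1 RIP with a FLAG antibody came from a stable FLAG-CBFB line made from MCF10A, and 1 input and 2 repeats of a RIP with an hnRNPK antibody came from parental MCF10A, with no drug treatment in either. The study's methods describe lentiviral FLAG-CBFB in CBFB-knockout MCF10A for another experiment, and whether the RIPseq line was made that way or is 1 clone is not given in the sources used here. No mock immunoprecipitation was analysed here, and each cell line has 1 input, so the line and the library cannot be told apart between inputs.

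D-type cyclins activate CDK4 and CDK6, which phosphorylate the RB protein and release E2F factors. E2F factors then switch on CCNE1 and genes for DNA replication. Cyclin B1 and CDK1 later drive entry into mitosis. Many of these genes are under transcriptional control that follows growth and the phase of the cycle, so their mRNA levels move with how fast a culture divides. CBFB is known as the partner subunit of RUNX transcription factors, and hnRNPK is an RNA-binding protein whose KH domains prefer stretches of cytosine.

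Because hnRNPK prefers C-rich RNA, the most C-rich 24-nt window of the reference transcript is printed for 5 members, namely CCNB1 and CDK1, which were lowest in the hnRNPK RIP, CDK6 and RB1, which the count test called higher, and CCND1, which it did not call. For comparison the same window is given for CCNK, CDC25B and CDKN1A, other cell cycle genes that were above the hnRNPK threshold. These 8 genes were chosen after their values were seen. Each sequence is the sense strand of the transcript, 5′ to 3′, from GENCODE 29 on GRCh38, with runs of 3 or more Cs in capitals.
CCND1: cacaggCCCaCCCCgCCCCaCCCC
CDK6: CCCCCCgCCCgCCCCagcggcgcc
RB1: CCCCCggcaccgccgccgccgCCC
CCNB1: ctaccaccgaatCCCtagtCCCCC
CDK1: tgtagctgccgctgcggccgccgc
CCNK: caccggCCCCCgCCCCCaCCCCCC
CDC25B: CCCtCCCtccttCCCCCCCCCCCC
CDKN1A: taCCCtggccgCCCCCtgCCCCCC

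The CCND1 window lies at chr11:69654111-69654134 on the plus strand, in the 3′ UTR in exon 5 of 5, and holds 17 Cs. The CDK6 window is at chr7:92833347-92833370 on the minus strand, in the 5′ UTR in exon 2 of 8, also with 17 Cs. RB1 has its window in coding sequence of exon 1 of 27 (chr13:48303970-48303993, plus strand, 17 Cs). The windows of the mitotic genes held fewer. That of CCNB1 has 13 Cs, in the 3′ UTR in exon 9 of 9 (chr5:69178037-69178060, plus strand). That of CDK1 has 10 Cs and no run of 3, in the 5′ UTR in exon 1 of 8 (chr10:60778532-60778555, plus strand). CCNK carries 19 Cs in coding sequence of exon 11 of 11 (chr14:99510291-99510314, plus strand). The window of CDC25B has 20 Cs in the 5′ UTR in exon 1 of 16 (chr20:3796407-3796430, plus strand), and that of CDKN1A has 16 Cs in the 3′ UTR in exon 3 of 3 (chr6:36685933-36685956, plus strand). A C-rich window is a description of the letters, not a measured binding site.

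Depth ranged from 69786576 to 106855647 expected counts a library, the estimated numbers of reads per gene. Mitochondrial genes took 4.27% and 11.2% of input counts, 62.2% of those in the FLAG-CBFB RIP, and 84.5% and 86.6% of those in the hnRNPK repeats, so most other genes had a lower FPKM in a RIP than in its input. Enrichment is therefore given as the difference in log2(FPKM + 1) between a RIP and its own input, minus the mean of this difference over the analysed genes. The mean that was subtracted was -1.34 for FLAG-CBFB and -2.61 and -2.68 for hnRNPK. A centred value of 0 is an mRNA that behaved like the mean of the analysed genes, and 2 is a 4-fold enrichment over it, the threshold used. This scale understates changes of weakly expressed mRNAs before centring. In the inputs, all 7 markers of basal breast epithelium were present, with a summed FPKM of 2405 to 3356. The luminal hormone receptor genes ESR1 and PGR summed to 0.67 to 0.71 with PGR at 0, blood and fibroblast markers reached at most 0.07 in sum, and of the endothelial markers CDH5 was at 0.

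The 10 mRNAs spanned a wide range of levels per length in both inputs. In the parental input the order of FPKM was CCNB1 at 234.1, CDK4 at 110.9, CCND3 at 55.4, CDK1 at 52.8, CCND1 at 32.3, RB1 at 11.5, CCNE1 at 8.87, E2F1 at 6.75, CDK6 at 5.55 and CCND2 at 0.27. In the FLAG-CBFB cell input it was CCNB1 at 112.0, CDK4 at 88.2, CDK1 at 52.0, CCND3 at 49.3, CCND1 at 41.7, RB1 at 22.2, CCND2 at 11.6, CDK6 at 8.06, CCNE1 at 5.62 and E2F1 at 3.04. CCNB1 and CDK4 led in both lines. With 1 input per line, the order of neighbours cannot be set against a replicate spread.

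**Figure D1:**
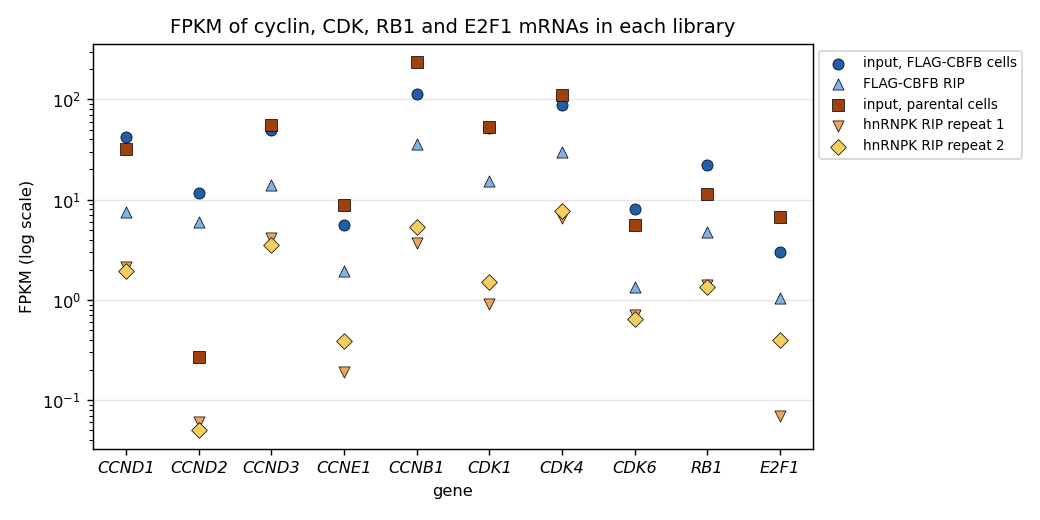
FPKM (log axis) of each mRNA in each of the 5 libraries, 1 symbol per library with no averaging. For every gene the RIP symbols lie under the symbol of the matching input, and the inputs are furthest apart for CCND2, at 11.6 in FLAG-CBFB cells and 0.27 in parental cells.

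CCND2 was the member with the largest difference between the inputs. It encodes another D-type cyclin. Its mRNA had 7770 expected counts in the FLAG-CBFB cell input but 119 in that of parental cells, a 43.0-fold higher FPKM in the former. On the centred log2 scale the inputs differed by 3.34, which put CCND2 at percentile 99.9 of the analysed genes. Across all analysed genes 4.7% were more than 2-fold higher in FLAG-CBFB cells than in parental cells and 4.87% more than 2-fold lower. Of the 10 members, 1 was higher by this measure and 1 lower.

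The lower one was CCNB1, which encodes cyclin B1. It had an FPKM of 112.0 in FLAG-CBFB cells and 234.1 in parental cells, a centred difference of -1.03 at percentile 4.49. E2F1 lay just inside the threshold at -0.91, with an FPKM of 3.04 against 6.75, and CCNE1 was at -0.55. RB1 leaned the other way at 0.93, with an FPKM of 22.2 against 11.5. CCND1 and CDK6 were at 0.39 and 0.50, and CCND3, CDK4 and CDK1 lay between -0.30 and 0.01. In bulk RNA, fewer cells in a phase and less mRNA per cell cannot be told apart. The median over the 10 was -0.06 and that over the analysed genes 0.00. No input was repeated, so none of these differences has a test.

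In the FLAG-CBFB RIP none of the 10 mRNAs passed the 4-fold threshold, against 4.37% of the analysed genes, and none was below -2 (0.0935% of all). The FPKM of all 10 was lower in the RIP than in its input, as it was for 92.7% of the analysed genes. Centred on the mean gene, 3 of 10 lay above 0 (35.1% of all), and the median was -0.31 against -0.19 over all. The median moves with the scale, from -1.65 without centring to 0.10 with DESeq2 size factors. There is 1 library per arm, so no test was possible.

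CCND1, the D-type cyclin that links growth factor signals to the cycle, had the lowest CBFB enrichment of the 10. FPKM went from 41.7 (16935 expected counts) in the input to 7.53 (2763 counts) in the RIP. The centred enrichment was -0.98, at percentile 4.16 of the analysed genes. RB1 followed at -0.66 and CDK6, a kinase partner of D-type cyclins, at -0.60. RB1 went from an FPKM of 22.2 in the input to 4.8 in the RIP, and CDK6 from 8.06 to 1.36. These 3 had the largest relative losses in FPKM, between 4.63-fold for RB1 and 5.93-fold for CDK6.

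At the other end were CCND2, E2F1 and CCNE1. CCND2 had an FPKM of 11.6 in the input and 5.96 in the RIP, a 1.95-fold difference that was the smallest of the 10, and a centred enrichment of 0.48 at percentile 84.0. E2F1 was at 0.35 with FPKM of 3.04 and 1.04, and CCNE1 at 0.16 with 5.62 and 1.93. Both are weak mRNAs in the RIP, with 221 and 252 counts and 95% counting errors of 0.22 and 0.20 on the log2 scale. Their FPKM ratios of input to RIP, 2.92 and 2.91, were close to that of CDK4 at 2.98, whose centred value was -0.20. The remaining members formed a narrow group just under 0. CCNB1 (112.0 in the input, 35.7 in the RIP) was at -0.28, CDK1 (52.0, 15.5) at -0.34, and CCND3 (49.3, 14.1) at -0.40.

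**Figure D2:**
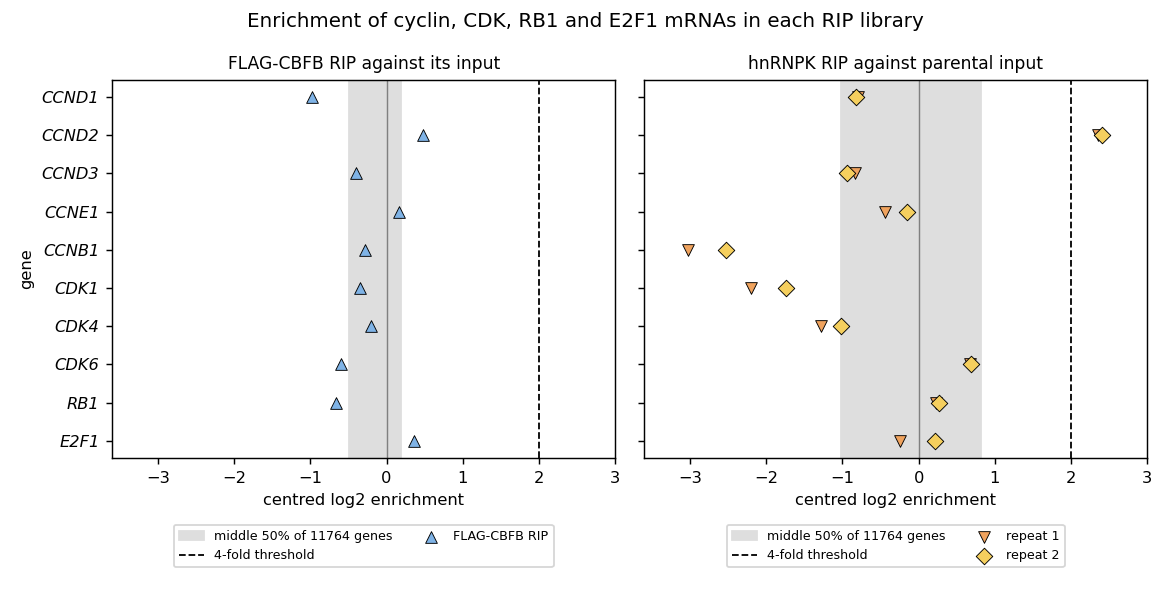
Centred log2 enrichment of each mRNA in the FLAG-CBFB RIP (left) and in each hnRNPK RIP repeat (right), with the middle 50% of the 11764 analysed genes in grey and the 4-fold threshold as a dashed line. All 10 lie within 1 unit of 0 on the left, while on the right they run from CCNB1 at -3.03 and -2.53 to CCND2 at 2.35 and 2.40.

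The hnRNPK RIP spread the same mRNAs much further, from -2.78 for CCNB1 to 2.38 for CCND2. FPKM was lower than in the parental input for all 10 in both repeats, as for 94.1% of the analysed genes. Of the 10, 1 had a mean centred enrichment above 2 (8.2% of all) and 1 below -2 (6.24% of all). Above 0 were 3 of 10 (46.8% of all), and the median was -0.55, against -0.11 over all. The hnRNPK RIP was the only repeated library, so it was also tested on expected counts with edgeR's quasi-likelihood test, 2 RIPs against 1 input, with TMM scaling and Benjamini-Hochberg adjustment over 17000 genes. The labels do not say that the repeats came from separate cultures, so the p-values measure the spread between these RIP libraries, which may be technical, and hold no spread of the input. The median log2 fold change over the tested genes was -0.13. By this test 2 of 10 mRNAs were higher than the input (21.7% of all genes tested) and 3 were lower (15.2%). DESeq2, run as an alternative, called 1 higher (21.4% of its 15353 genes with an adjusted p) and 2 lower (8.62%).

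CCNB1 had the lowest value. From 234.1 in parental input, FPKM went to 3.71 and 5.36 in the RIP repeats, with 19498, 521 and 604 expected counts. Both repeats lay far under the input, at -3.03 and -2.53 after centring, a gap of 0.50 that was the largest of the 10 members, with a mean of -2.78 ± 0.36 (SD, n = 2) at percentile 0.859 of the analysed genes. CCNB1 fell by 1.77 on the log2 scale with edgeR's quasi-likelihood test (Benjamini-Hochberg adjusted p = 2.1e-06). Over the alternative settings the adjusted p lay between 1.16e-07 and 0.000295.

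CDK1, the kinase that cyclin B1 activates, followed it. It had an FPKM of 52.8 in the input and 0.92 and 1.51 in the repeats, and a centred enrichment of -2.20 and -1.74 (mean -1.97 ± 0.32, SD, n = 2). Again both repeats were far from the input. The log2 fold change from edgeR was -1.65 (Benjamini-Hochberg adjusted p = 2.0e-05, range over alternatives 1.81e-06 to 0.00478). Its reference transcript, whose C-rich window is shown above, holds 0 runs of 4 or more Cs. GAPDH, a glycolytic enzyme gene used as a reference, also had low values in the hnRNPK RIP, with a centred enrichment of -2.69 and an edgeR log2 fold change of -1.57.

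CCNE1, which encodes the cyclin that activates CDK2 at the start of S phase, was the other mRNA that fell. Its counts were 975 in the input and 28 and 51 in the repeats, and its FPKM 8.87, 0.19 and 0.39. The log2 fold change was -1.25 (edgeR, Benjamini-Hochberg adjusted p = 0.0276), and the call was lost with DESeq2 (adjusted p = 0.209). On the FPKM scale its centred enrichment was -0.30 ± 0.21 (SD, n = 2), near the mean gene. E2F1 had 1103 counts in the input and only 16 and 85 in the repeats, with FPKM of 6.75, 0.07 and 0.40. Its repeats had the largest count ratio of any member. The centred enrichment was -0.02 ± 0.32 (SD, n = 2). The log2 fold change of -1.02 did not pass with edgeR (Benjamini-Hochberg adjusted p = 0.0680) and its range over alternatives, from 0.0260 to 0.448, crossed the threshold.

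CDK6 and RB1 were at the upper side. CDK6 had FPKM values of 5.55 in the input and of 0.71 and 0.65 in the repeats, with 3807, 756 and 648 counts. RB1 had an FPKM of 11.5, 1.40 and 1.34 and 3221, 670 and 559 counts. The repeats were nearly equal for both, with centred enrichments of 0.67 and 0.69 for CDK6 and 0.23 and 0.26 for RB1. On the TMM scale, which takes the bulk of genes as unchanged, CDK6 rose by 0.88 (adjusted p = 0.0479) and RB1 by 0.93 (adjusted p = 0.0364) in edgeR with Benjamini-Hochberg adjustment, although both had a lower FPKM than the input and both took a smaller share of non-mitochondrial counts. That share was 77.1% and 86.9% of the input's for CDK6 and 80.8% and 88.6% for RB1. Both calls sit near the threshold, with adjusted p up to 0.207 and 0.169 over the alternatives. DESeq2 called RB1 (adjusted p = 0.0455) and not CDK6 (adjusted p = 0.0562), and with no filter on low counts the test called neither.

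CCND1 kept close to the centre of the library in the hnRNPK RIP. Its FPKM was 32.3 in the input and 2.14 and 1.93 in the repeats, and its centred enrichments of -0.80 and -0.83 gave a mean of -0.81 ± 0.02 (SD, n = 2) at percentile 30.0. The edgeR log2 fold change was -0.05 (Benjamini-Hochberg adjusted p = 0.936). By the distance over the centred values of the 3 RIPs and the inputs, the analysed genes nearest to CCND1 were AP2A2 (distance 0.0747), PHF20L1 (0.0905) and RPS6KB1 (0.142). CCND3 and CDK4 also gave no call. CCND3 had an FPKM of 55.4 in the input and 4.19 and 3.57 in the repeats, a centred enrichment of -0.89 ± 0.08 (SD, n = 2). Its log2 fold change was -0.30 (edgeR, Benjamini-Hochberg adjusted p = 0.546). CDK4 had 110.9, 6.55 and 7.66, a centred enrichment of -1.15 ± 0.19 (SD, n = 2), and a log2 fold change of -0.34 (edgeR, Benjamini-Hochberg adjusted p = 0.480). Reads of CCND1 and CDK4 cannot be told apart from those of the opposite-strand genes LTO1 and TSPAN31, which share exonic sequence with them, unless strand was used in counting, which is not given in the sources used here. Before RIP, LTO1 and TSPAN31 had 1601 and 1545 counts in parental cells, against 8226 for CCND1 and 9877 for CDK4.

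CCND2 passed the 4-fold threshold only through centring. FPKM was as low as 0.27 in parental cells and 0.06 and 0.05 in the hnRNPK repeats, with 119, 37 and 31 counts. Before centring, its log2(FPKM + 1) differed by -0.26 and -0.27 from the input, since so weak an mRNA has little room to be lower on this scale, and centring took these values to 2.35 and 2.40. In the count test the log2 fold change of 1.51 did not pass (edgeR, Benjamini-Hochberg adjusted p = 0.0677), and over the alternatives its adjusted p ranged from 0.00608 to 0.155. CCND2 is the member with the largest difference between the inputs, and set against the input of the other line its hnRNPK value was -0.96.

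Summed counts of all 10 mRNAs compare the libraries without any centring. Per 1000000 non-mitochondrial counts they took 963 in parental cells before RIP (95% Wilson interval 955 to 971), and 274 (266 to 283) and 346 (336 to 357) after it. In FLAG-CBFB cells they took 920 in the input (914 to 926) and 659 (650 to 667) in the RIP. Both RIPs held a smaller summed share than their input, and the hnRNPK RIPs the smallest. The sum leans on CCNB1, which took 315 in parental cells before RIP and 32.6 and 49.7 after it. CCND2 had 121% and 133% of its input share in the hnRNPK repeats, on 119 counts in the input and 37 and 31 after RIP. The 95% counting errors of these ratios, 0.53 and 0.57 on the log2 scale, include no change. CCND1, at an edgeR log2 fold change of -0.05, kept 43.0% and 42.8%. The fall was not set against all genes, so it cannot be called particular to the 10 mRNAs. These intervals cover counting error only, since no molecular identifiers were used here.

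The rest of the pathway was described by 7 lists of 65 genes. The list of proliferation and E2F target genes holds the MCM helicase subunits, PCNA and other replication and mitosis genes. Of its 18 genes, 16 were lower in the hnRNPK RIP by edgeR (15.2% of all genes tested) and 0 were higher (21.7%). The median edgeR log2 fold change was -1.59, against -0.13 over all genes. PCNA, the sliding clamp of DNA polymerase, had the lowest centred enrichment at -2.88 ± 0.73 (SD, n = 2), with FPKM of 133.0 in the input and 1.09 and 3.08 in the repeats, and PLK1, a mitotic kinase, the highest at -0.39. DESeq2 called 10 of the 18 lower and 0 higher, against 8.62% and 21.4% of its 15353 genes with an adjusted p. These shares are also the background of the DESeq2 counts in the lists below. The median centred enrichment was -2.20 in repeat 1 and -1.54 in repeat 2. In repeat 1, 12 of 18 were below -2, against 786 of the 11764 analysed genes. In repeat 2 it was 1 of 18, against 719. That 1 was PCNA, at -3.39 and -2.36 in the repeats. The others of the 7 below -2 in the mean rest on repeat 1.

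**Figure D3:**
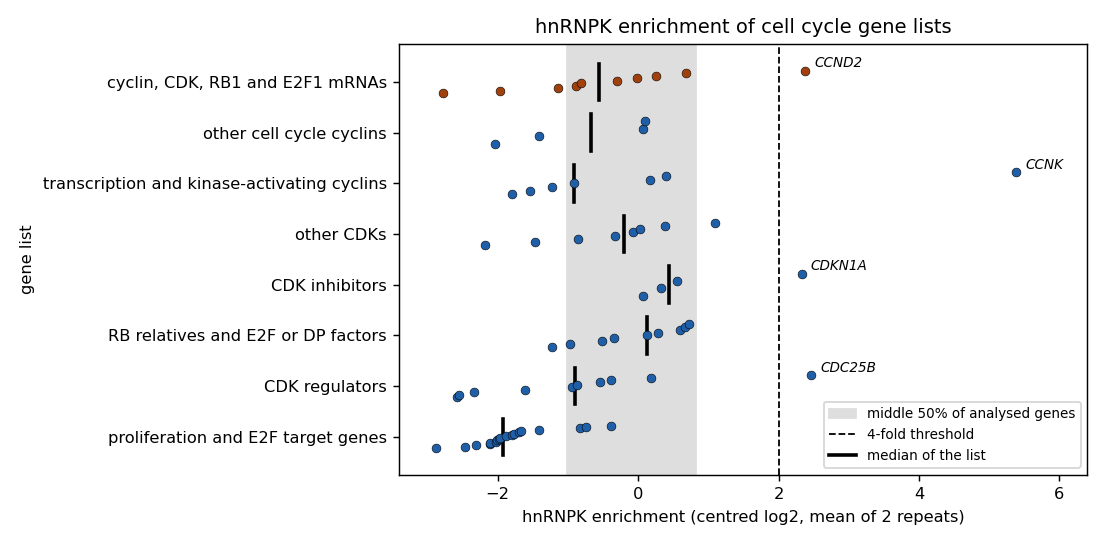
Mean centred hnRNPK enrichment of each gene (points) in the 10 mRNAs and the 7 pathway lists, with the median of each list as a bar, the middle 50% of analysed genes in grey and the 4-fold threshold dashed. The proliferation and E2F target genes sit furthest left, with a median of -1.93, and CCNK, CDC25B, CDKN1A and CCND2 are past the threshold.

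Among the other cyclins, 3 of the 4 further cell cycle cyclins were lower by edgeR (15.2% of all genes tested) and 0 were higher (21.7%), while DESeq2 called 1 lower. CCNB2, a second B-type cyclin, had the lowest centred enrichment of them at -2.04, with FPKM of 67.5 in the input and 1.51 and 1.83 in the repeats. CCNE2 had the highest at 0.10, on a scale that understates changes of weak mRNAs. The FPKM of CCNE2 was 5.19 in the input and 0.03 and 0.10 in the repeats. It was among the 3 called lower by edgeR (Benjamini-Hochberg adjusted p = 0.0484), a call lost with DESeq2 (adjusted p = 0.280). Of 7 cyclins that act with transcriptional or CDK-activating kinases, edgeR called 1 higher and 2 lower (21.7% and 15.2% of all genes), and DESeq2 1 higher and 1 lower. CCNK, the cyclin of the elongation kinases CDK12 and CDK13, stood far above the threshold in every RIP. In parental cells its FPKM was 25.3 before and 189.0 and 161.8 after hnRNPK RIP, and in FLAG-CBFB cells it was 30.1 before and 242.2 after RIP. The centred enrichment was 5.38 ± 0.11 (SD, n = 2) for hnRNPK and 4.31 for CBFB. CCNH, a subunit of the CDK-activating kinase, was the lowest of the 7 for hnRNPK at -1.80, and CCNL2 the lowest for CBFB at -1.37.

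Of 8 other CDKs, 2 were higher by edgeR and 3 lower, against 21.7% and 15.2% of all genes tested, and DESeq2 called 2 higher and 1 lower. CDK12 had the highest hnRNPK enrichment at 1.09 and rose by 2.09 in edgeR (Benjamini-Hochberg adjusted p = 5.9e-07), and CDK7, the kinase partner of cyclin H, the lowest at -2.19. For CBFB the ends of this list were CDK16 at 0.36 and CDK13 at -0.84. The RB relatives and E2F or DP factors gave 1 higher, E2F4, and 0 lower of 11 by edgeR, against 21.7% and 15.2% of all genes tested. E2F3 and TFDP1, a dimerization partner of E2F factors, had the highest and the lowest hnRNPK enrichment at 0.73 and -1.22, while E2F4 and RBL2 had the highest and the lowest CBFB enrichment at 0.32 and -0.95.

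Of the listed genes, CDC25B and CDKN1A followed CCNK in hnRNPK enrichment. CDKN1A, which encodes the CDK inhibitor p21, had FPKM values of 57.4 before and of 55.5 and 37.9 after hnRNPK RIP, which makes the RIP values much nearer to the input than those of most genes. Its centred enrichment was 2.33 ± 0.33 (SD, n = 2) for hnRNPK and 1.58 for CBFB, with FPKM of 80.3 and 94.8 in the FLAG-CBFB cell libraries. By edgeR 1 of 5 inhibitors tested was higher and 1, CDKN1C, lower (21.7% and 15.2% of all genes tested), and DESeq2 called 1 higher and 0 lower (adjusted p = 0.224 for CDKN1C). CDKN1C had the lowest hnRNPK enrichment of them at 0.07 and CDKN1B the lowest CBFB enrichment at -0.51. CDKN2A and CDKN2B, known to be deleted in MCF10A, were listed at 0 in all 5 libraries.

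Of 10 CDK regulators, 1 was higher and 4 were lower by edgeR and by DESeq2, against 21.7% higher and 15.2% lower of all genes tested by edgeR. CDC25B, a phosphatase that activates CDK1, had FPKM values of 70.0 before and of 74.5 and 51.0 after hnRNPK RIP, and in FLAG-CBFB cells of 82.4 before and 131.0 after RIP. It was at 2.46 ± 0.33 (SD, n = 2) for hnRNPK and at 2.0 for CBFB, the edge of the threshold. CDC20, an activator of the anaphase-promoting complex, had the lowest hnRNPK enrichment of the list at -2.58 and WEE1, a kinase that inhibits CDK1, the lowest CBFB enrichment at -0.81.

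For CBFB the pathway lists lay near the centre of the library. Their medians ran from -0.41 in the proliferation list, where MCM4 was lowest at -1.06 and RRM2 highest at 0.21, to 0.10 in the CDK inhibitors, against -0.19 over all analysed genes. Further ends were CCNE2 at 0.54 and CCNA2 at -0.51 in the list of other cell cycle cyclins. Of the listed genes that were analysed, CCNK and CDC25B were above 2 in the FLAG-CBFB RIP, as were 4.37% of all analysed genes. Between the inputs, 16 of the 18 proliferation genes were lower in FLAG-CBFB cells than in parental cells after centring (88.9%, against 49.6% of all analysed genes), with a median of -0.50.

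The proliferation genes and several of the 10 mRNAs also differed between the hnRNPK repeats. In repeat 2 against repeat 1, all 18 proliferation genes had a higher centred enrichment (50.3% of all analysed genes did), with a median difference of 0.73 against 0.00 over all. Of the 10 mRNAs 8 were higher in repeat 2. CCNB1 differed by 0.50, CDK1 by 0.46 and E2F1 by 0.46, while CDK6, RB1 and CCND1 differed by 0.02, 0.03 and -0.03. The SD of this difference over the analysed genes was 0.35. On log2 CPM with TMM factors the gap was 2.66 for E2F1, 1.13 for CCNE1, 0.77 for CDK1 and 0.49 for CCNB1. In expected counts, E2F1 had 16 in repeat 1 and 85 in repeat 2 and CCNE1 28 and 51, as RRM2, which encodes a subunit of ribonucleotide reductase, had 280 and 779. The gap moves with proliferation genes as a group, and its part in the hnRNPK values of CCNB1, CDK1, CCNE1 and E2F1 was not tested.

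**Figure D4:**
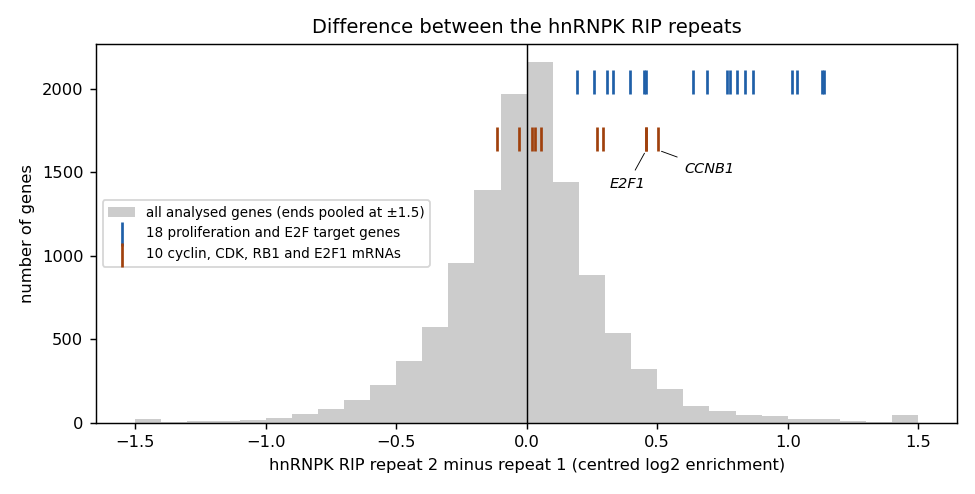
Difference in centred log2 enrichment between hnRNPK RIP repeat 2 and repeat 1, as a histogram over all analysed genes, with the 18 proliferation and E2F target genes and the 10 mRNAs as ticks. All 18 proliferation genes lie to the right of 0, as do 8 of the 10 mRNAs, with CCNB1 at 0.50 and E2F1 at 0.46. This scale understates the gap of weak mRNAs such as E2F1.

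The sequences shown above can be set beside these values. Runs of 4 or more Cs (CCCC, sense strand of the reference transcript, each unbroken run counted once) were found in 98.1% of 10507 analysed protein-coding genes, with a median of 3.51 per kb. CDK1 had 0 (percentile 1.87) and CCNB1 2.31 per kb, but RB1 had 1.88 and CDK6 2.67 per kb, also under the median. E2F1 had the most of the 10, at 9.19 per kb, with a mean hnRNPK enrichment of -0.02 and repeats at -0.25 and 0.21. CCND3 at 7.67, CDK4 at 7.23 and CCND1 at 5.34 followed, with mean hnRNPK enrichments of -0.89, -1.15 and -0.81. CCNK, CDC25B and CDKN1A had 9.93, 10.3 and 11.03 per kb, and GAPDH, low in the hnRNPK RIP, had 10.1. Over the 10 members the Spearman correlation of C runs per kb with hnRNPK enrichment was 0.07, and over all 10507 genes 0.24. For transcript length with hnRNPK enrichment it was 0.76 over the 10 and 0.30 over all. With CBFB enrichment, transcript length gave -0.21 over the 10 and -0.31 over all, and C runs per kb 0.28 and 0.23. The points share libraries and base composition, and these correlations are a description. CDK6, with a reference transcript of 11612 nt, was the longest of the 10, and CDK1 with 1913 nt the shortest.

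The mean transcript length that the quantification assigned to a gene also differed between libraries. It was largest for CCND3, from 1399 to 1892 nt, a 1.35-fold range, and constant for E2F1 at 2503 nt. Since FPKM is divided by length, a shift of this size changes the FPKM of CCND3 without a change in counts.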

How the data were processed

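Samples were grouped by their titles. Trizol-extracted RNA was prepared for sequencing with a TruSeq mRNA kit, per the labels. The submitters' processing notes name Trimmomatic, STAR and RSEM and the build hg19, without versions. The deposited expected counts are the authors' RSEM estimates of reads per gene, and the authors' FPKM values are scaled by effective length and by all reads of a library, mitochondrial reads included. Per the file headers, the other column used is the mean transcript length in nt.

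Gene IDs (50276 of 56632 by ID, 640 through a transcript) were named with a table of gene names and GENCODE 29 (GRCh38). The tables hold no coordinates, so positions and sequences are those of GENCODE 29 on GRCh38. Gene positions on GRCh38 are 11:69641087-69654474 for CCND1 (ENSG00000110092), 5:69167010-69178245 for CCNB1 (ENSG00000134057), 10:60778331-60794852 for CDK1 (ENSG00000170312), 7:92604921-92836594 for CDK6 (ENSG00000105810) and 13:48303726-48599436 for RB1 (ENSG00000139687). The others are 12:4273772-4305350 for CCND2 (ENSG00000118971), 6:41934933-42050357 for CCND3 (ENSG00000112576), 19:29811898-29824308 for CCNE1 (ENSG00000105173), 12:57747727-57756013 for CDK4 (ENSG00000135446) and 20:33675683-33686404 for E2F1 (ENSG00000101412).

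Enrichment used a pseudocount of 1. For edgeR 4.0.16 (R 4.3.3) the expected counts were rounded and genes with at least 10 counts in at least 1 of 3 libraries were kept. Calls used an adjusted p under 0.05. DESeq2 1.42.0 was an alternative. The 3-count floor of a library share was between 2.8e-08 and 4.3e-08. The hnRNPK repeats differed by more than sampling noise (chi-square of 71.3 per degree of freedom) and were counted as 2. The count test was also run on simulated counts with 200 genes changed. There edgeR recovered 99% of 4-fold and 55% of 2-fold changes, and DESeq2 95% and 36%. The simulated spread was set in advance and not taken from the repeats, so these shares do not carry over to the real libraries. Other calculations used Python 3.11.15, pandas 2.3.3 and SciPy 1.17.1.

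The members, the 7 lists and the tests were chosen with earlier results of these data known. Named besides the members are, per list, the genes with the highest and the lowest hnRNPK and CBFB enrichment with at least 50 counts, CDKN2A and CDKN2B, GAPDH as a reference and the 3 genes nearest to CCND1. LTO1 and TSPAN31 were named for overlap, and the shown windows of other genes after their values were seen.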

Additional observations from a re-analysis of the deposited data

Results flagged for a closer look

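For CCNE1, CDK6 and RB1 the centred enrichment had opposite signs in the CBFB pulldown and in both hnRNPK RIP repeats. CDK6 was at -0.60 for CBFB and 0.68 for hnRNPK, a difference of -1.28 between the RIPs. RB1 was at -0.66 and 0.25, a difference of -0.91. CCNE1 was at 0.16 and -0.30, a difference of 0.46. The 95% counting error of its CBFB value was 0.20, so the sign of that value is not resolved. The FLAG-CBFB RIP has 1 library per arm, so these differences were not tested.

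The signs depend on the scale and the input. Without centring all 6 values were negative. Against the input of the other cells the RB1 value was 0.27 in the CBFB pulldown and -0.68 with hnRNPK, and CCNE1 at -0.38 and 0.25, so both turned over, while CDK6 was at -0.10 and 0.18. With log2 CPM and TMM factors CDK6 was at -0.83 and 0.58, RB1 at -0.51 and 0.63, and CCNE1 at 0.07 and -1.65.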

How the results depend on the processing

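The depth limits E2F1, CCNE1 and CCND2 most, and 1 input per line limits every value. The CBFB median of -0.31 was -0.13 with a pseudocount of 0.1, -1.65 without centring, -0.12 centred on the median, -0.996 over all genes with a count, -0.11 rescaled without mitochondrial genes, 0.011 with TMM CPM, 0.10 with CPM by DESeq2 size factors and -0.44 against the input of the other cells, where 1 member (CCND2) passed the 4-fold threshold instead of 0. The hnRNPK median of -0.55 was -3.20 without centring, -0.44 centred on the median, -1.94 over all genes, -0.44 rescaled without mitochondrial genes, -0.38 by DESeq2 size factors and -0.80 against the other input. It ran from -0.62 to -0.49 when 1 repeat was left out, with 1 member above 2 each time. The 1 member above 2 for hnRNPK, CCND2, became 0 without centring (-0.27), over all genes, at a mean FPKM of at least 5 (where CCND2 was not analysed), rescaled without mitochondrial genes, by either CPM and against the other input (-0.96). Without centring CDKN1A was at -0.32 and CDC25B at -0.18. Between the inputs, the 2 members past 2-fold became 0 at a mean FPKM of at least 5. They became 3 with a pseudocount of 0.1 and by either CPM. The value of E2F1 between the inputs ran from -1.21 to -0.91 over the settings. The median was -0.15 by DESeq2 size factors. With 1 repeat left out the count test has no spread between libraries and gives fold changes only. With both, edgeR called 3694 genes higher and 2576 lower, and DESeq2 1324 lower. Of the members, 2 were higher by edgeR, 1 by DESeq2, 0 without a filter, 1 without mitochondrial genes and 1 with all 5 libraries in the fit. Beyond what each setting leaves out or subtracts, the cause of these shifts was not tested. No paired analysis was possible because both hnRNPK repeats share 1 input, labelled without a repeat number. The other groups hold 1 library each.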
